A study of Mus musculus with 6 samples.

Results

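The metabotropic glutamate receptors are the G protein-coupled receptors for the transmitter glutamate, encoded by the Grm genes. Every probe set that the array annotation pairs with a single gene was taken for Grm2, Grm3, Grm4, Grm5, Grm6, Grm7 and Grm8. This gave 9 of the 34945 single-gene probe sets, covering 6 of these 7 genes and of the 18193 genes measured: 1 each for Grm2, Grm3, Grm4 and Grm8, 2 for Grm5 and 3 for Grm7. Grm6 was not paired with any probe set in that annotation and is not analysed here. A further probe set is paired with both Grm2 and a second gene, so it was not counted for Grm2. The genes were chosen by family with their treated against vehicle differences over the 6 arrays in view, so that contrast is given as a description without a test.

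Whole brains of C57BL/6 mice were profiled on 6 Affymetrix arrays, each carrying RNA pooled from 6 animals. Testosterone propionate (TP), an ester of testosterone, was injected intraperitoneally at postnatal day 2 as 1 mg in 20 µL of sesame oil, and control animals received 20 µL of the oil alone (vehicle). Brains were collected at postnatal day 6, so all groups share the injection, the strain and the age. There were 2 arrays of TP females, 1 of TP males, 2 of vehicle females and 1 of vehicle males. The second female array of each treatment is called a replica in the labels, which do not say whether it holds a separate pool of mice, so p-values measure the spread between these arrays, which may be technical. Values are log2 expression levels made by the authors with RMA, a method that corrects background, normalizes arrays and summarizes probes, and array medians lay between 5.69 and 5.74. Each level belongs to its own probe set, since probes differ in how well they bind. Levels of different probe sets were ranked to pick the brightest of a gene and to mark low ones. They were not read as relative amounts of RNA.

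Receptors of this family fall into 3 groups by sequence and signalling. Group I, with Grm5, couples to Gq, which activates phospholipase C and releases calcium from stores. Group II, with Grm2 and Grm3, and group III, with Grm4, Grm6, Grm7 and Grm8, couple to Gi and Go, which lower cyclic AMP and often reduce transmitter release at presynaptic terminals. In the young rodent brain Grm5 is abundant in forebrain neurons and in astrocytes, where it takes part in synapse maturation, while Grm6 is known mainly from bipolar cells of the retina.

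The whole-brain label was checked against its markers. Neuron markers, 6 of 6 measured, averaged 12.18 to 12.19 log2 units in TP females, 12.15 in the TP male array, 12.19 to 12.22 in vehicle females and 12.16 in the vehicle male array. Astrocyte markers, 6 of 6 measured, averaged between 10.63 and 10.77 over all arrays. The male TP array stood apart on several measures. Xist, the RNA that silences one X chromosome in females, stood at 10.45 there, against 5.29 in the vehicle male array and between 12.61 and 12.83 in the female arrays, while the Y-linked Eif2s3y was at 9.12 in the TP male and 9.16 in the vehicle male. Its pituitary markers averaged 6.03, against 5.04 in the vehicle male array and 4.92 to 5.29 in the female arrays. Gh stood at 8.55, against 5.37 to 5.75 on the other arrays, and Pomc at 7.86, against 6.45 to 6.57. Tshb and Cga were only slightly above the other arrays, and Prl and Lhb lay inside their range. Hindbrain and spinal cord markers averaged 5.85 in the TP male, against 6.12 to 6.46 on the other arrays. In that list the patterning gene Hoxa5 was the furthest apart, at 7.46 there, against 8.30 to 8.47. Hoxb3, Hoxb5, Hoxd3 and Slc6a5 were also lowest in the TP male, Slc6a5 only narrowly. Hoxb4, at 4.88, and Hoxc5, at 5.04, lay inside the range of the other arrays. Bone markers, 5 of 6 measured, averaged 4.32 in the TP male and 5.39 to 5.43 in TP females, against 4.71 to 4.75 in vehicle females and 4.91 in the vehicle male. Ibsp, Dmp1 and Acp5 were lowest in the TP male, while Sp7, at 5.98, and Col10a1, at 4.31, lay inside the range of the other arrays. Of the 5 genes, 4, all but Sp7, had a mean under 5.49 log2 units, the 40th percentile of probe sets. Of these bone genes 1 passed for the dependence of the TP difference on sex, Ibsp, a bone matrix protein, named after its values were seen (limma adjusted p = 0.0102). Sex and TP differences of the receptors are given with and without this array. Without it the TP difference is that of females and the sex difference that of vehicle arrays, and the dependence of the TP difference on sex has no value.

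Promoter sequence is shown for the group II pair and for 1 start of Grm8, because the treatment was an androgen ester and these can be read for hormone response motifs. The sequences are the 250 bases before an annotated start in RefSeq, build GRCm38.p6, written 5′ to 3′ on the gene's strand, and capitals mark a match to the androgen half-site AGAACA or the estrogen half-site GGTCA on either strand.
Grm3: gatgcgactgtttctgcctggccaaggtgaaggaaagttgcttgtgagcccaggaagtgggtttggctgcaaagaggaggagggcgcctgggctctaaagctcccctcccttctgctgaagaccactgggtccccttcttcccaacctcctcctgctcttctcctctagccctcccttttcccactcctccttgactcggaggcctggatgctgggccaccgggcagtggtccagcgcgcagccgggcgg
Grm2: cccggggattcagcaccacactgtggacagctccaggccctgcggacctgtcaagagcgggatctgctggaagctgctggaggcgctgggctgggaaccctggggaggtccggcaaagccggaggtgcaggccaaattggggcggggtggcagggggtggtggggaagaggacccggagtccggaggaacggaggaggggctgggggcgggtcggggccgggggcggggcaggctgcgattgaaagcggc
Grm8: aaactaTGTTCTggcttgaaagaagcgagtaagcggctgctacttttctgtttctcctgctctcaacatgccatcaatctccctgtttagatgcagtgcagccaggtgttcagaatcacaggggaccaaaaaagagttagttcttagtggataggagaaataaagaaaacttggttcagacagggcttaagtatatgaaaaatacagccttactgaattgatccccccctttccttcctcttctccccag

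Of the receptors with a probe set, 4 (Grm2, Grm3, Grm7 and Grm8) had promoter entries, 7 windows in all, while Grm4 and Grm5 had none. The Grm3 window lies at chr5:9725353-9725602 on the minus strand, the Grm2 window at chr9:106656110-106656359 on the minus strand and this Grm8 window at chr6:28126427-28126676 on the minus strand. Only the Grm8 start shown held AGAACA, with 1 match, and 0 of the 7 windows held GGTCA. Among all 32851 promoter windows of this length, 16.1% held AGAACA and 35.2% held GGTCA. The full elements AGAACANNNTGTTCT and GGTCANNNTGACC, which contain these half-sites, were in none of the 7 windows and in 0.00913% and 0.0639% of all windows. The Grm2 window was 71.2% G and C with 16 CpG, the Grm3 window 62.4% with 8 CpG and the Grm8 window 43.6% with 2 CpG, beside medians of 52.4% and 6 over all windows. A match describes these letters and is no evidence of binding.

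The 9 probe sets varied little over the arrays. The difference between a probe set's highest and lowest array ranged from 0.17 to 0.38 log2 units, with a median of 0.24, beside medians of 0.29 over all single-gene probe sets and 0.24 over those that were not dim. Probe sets with a mean under 5.49 log2 units, the 40th percentile, are called dim. Of the 9, 7 were not dim, including the brightest probe set of each of the 6 genes, and the dim ones were 2 of the 3 Grm7 probe sets.

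**Figure D1:**
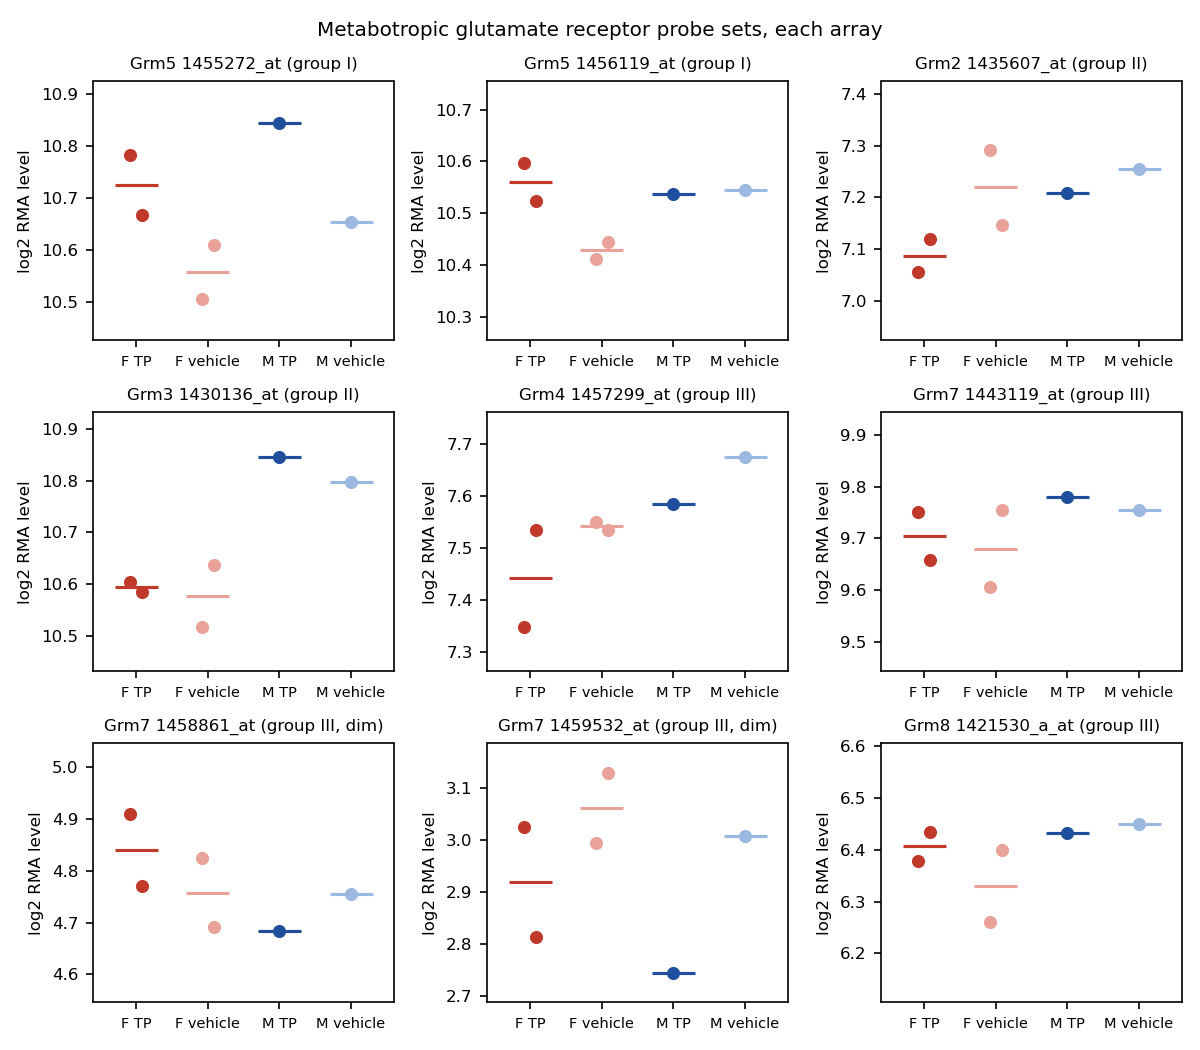
Level of each receptor probe set on every array (log2 RMA units, y axes of equal height but different position), with TP left of vehicle in females (F) and males (M); points are arrays and lines are group means. For Grm5 1455272_at the 3 TP arrays sit between 10.67 and 10.85, above the vehicle arrays, and for Grm3 the 2 male arrays, at 10.85 and 10.80, sit above the 4 female ones.

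Grm5, the group I receptor, was higher in TP brains on the brighter of its probe sets. Probe set 1455272_at stood at 10.78 and 10.67 log2 units in TP females and 10.85 in the TP male, against 10.51 and 10.61 in vehicle females and 10.65 in the vehicle male. All 3 TP arrays were above all 3 vehicle arrays, by a gap of 0.014 log2 units between the lowest TP and the highest vehicle array. The difference was 0.18 (SE 0.07, n = 3 arrays each, adjusted for sex), a 1.13-fold higher level, with 0.17 (SE 0.09, n = 2 each) in females and 0.19 between the single male arrays. From high to low the order was TP male, TP female, vehicle male and vehicle female. TP female and vehicle male, at means of 10.73 and 10.65, differed by less than the SD of the TP female pair (0.08).

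The other Grm5 probe set, 1456119_at, repeated this in females and not in males. It had 10.60 and 10.52 log2 units in TP females and 10.54 in the TP male, against 10.41 and 10.44 in vehicle females and 10.55 in the vehicle male. Both female TP arrays were above both female vehicle arrays, while the male arrays were nearly level and the treatment groups overlapped over both sexes. Its difference was 0.13 (SE 0.08, n = 2 each) in females, -0.0083 between the male arrays and 0.09 (SE 0.06, n = 3 each) over both sexes.

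Of the 9 receptor probe sets, 1 (the brighter of Grm5) had all TP arrays above all vehicle arrays and 0 had them all below, beside 6.01% and 9.12% of all single-gene probe sets. By limma 0 of 34945 probe sets passed an adjusted p of 0.05 for TP over both sexes (0% called), and 4304 had an unadjusted p under 0.05. With the TP male array left out, the Grm5 probe set was still the 1 with TP above vehicle, beside 11.4% of all probe sets, and 1 receptor probe set (Grm2) had TP below vehicle, beside 15.2%. These counts were in view when the receptors were chosen and nothing is read from them.

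Brain region markers are given beside these values, and none passed the limma threshold for TP (smallest adjusted p 0.347 for cortex and 0.291 for hindbrain). Cerebral cortex markers, 5 of 7 measured, averaged 8.69 to 8.74 log2 units in TP females and 8.74 in the TP male, against 8.57 to 8.74 in vehicle females and 8.56 in the vehicle male. Hindbrain and spinal cord markers, 7 of 8 measured, averaged 6.12 to 6.16 in TP females and 5.85 in the TP male, against 6.37 to 6.46 in vehicle females and 6.35 in the vehicle male. Every TP array was below every vehicle array for the hindbrain mean, with 7 of 7 TP differences below 0 (62.1% of all genes had one). For 4 of the 7 genes all TP arrays were below all vehicle arrays (10.3% of all genes had this). Of the 7, 3 (Hoxb4, Hoxc5 and Hoxd3) were dim. The cortex means overlapped in females, with 3 of 5 differences above 0 and 2 below, and of 7 cerebellum markers 4 were above 0 and 3 below. Over all genes 37.9% were above 0. Their part in the Grm5 values was not tested. In whole-brain RNA, fewer cells of a type and less RNA per cell cannot be told apart.

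The group II receptors took different values. Grm2, a mainly presynaptic receptor, had 7.06 and 7.12 log2 units in TP females and 7.21 in the TP male, against 7.29 and 7.15 in vehicle females and 7.25 in the vehicle male. Both TP females were below both vehicle females, with a difference of -0.13 (SE 0.09, n = 2 each), and the groups overlapped once males were included, with -0.10 (SE 0.07, n = 3 each). The female difference was -0.0589 without the first vehicle female and -0.204 without the second, and the one over both sexes was -0.0537 without the first. Grm3, which neurons and glia both express, had 10.60 and 10.58 log2 units in TP females and 10.85 in the TP male, against 10.52 and 10.64 in vehicle females and 10.80 in the vehicle male. Its TP difference was 0.03 (SE 0.06, n = 3 each) and 0.02 in females alone, where TP and vehicle arrays interleaved, and it was -0.0039 over both sexes without the first vehicle female.

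Group III receptors, which lie mostly on presynaptic terminals, had TP differences over both sexes between -0.10 and 0.05 on the brightest probe set of each gene. Grm4, known from cerebellar granule cells, had 7.35 and 7.53 log2 units in TP females and 7.59 in the TP male, against 7.55 and 7.53 in vehicle females and 7.68 in the vehicle male, a difference of -0.10 (SE 0.07, n = 3 each) and also -0.10 in females alone. The lowest array was a TP female and the groups overlapped. Without that array the difference was -0.0429 over both sexes and -0.0079 in females, and without the second TP female -0.1495 and -0.1945. Grm8 had 6.38 and 6.43 in TP females and 6.43 in the TP male, against 6.26 and 6.40 in vehicle females and 6.45 in the vehicle male, a difference of 0.05 (SE 0.07, n = 3 each) with overlapping groups and 0.08 in females alone. Without the first vehicle female it was -0.003 over both sexes.

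Grm7, found at the active zone of presynaptic terminals, had 3 probe sets that did not share a direction. The brightest, 1443119_at, had 9.75 and 9.66 log2 units in TP females and 9.78 in the TP male, against 9.61 and 9.75 in vehicle females and 9.75 in the vehicle male, a difference of 0.02 (SE 0.07, n = 3 each), which was also the value in females alone and was -0.0171 without the first vehicle female. The dim 1458861_at, with levels between 4.68 and 4.91, had a difference of 0.03 (SE 0.07). The dim 1459532_at, with levels between 2.74 and 3.13 on arrays whose minima were 2.11 to 2.20, had -0.18 (SE 0.08). In size this was the largest TP difference over both sexes among the 9 receptor probe sets. The groups overlapped on each of the 3, and for the dim ones the size of a difference is uncertain.

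Over both sexes 6 of the 9 probe sets had a TP difference above 0 (42.2% of all probe sets did), with a median of 0.03 beside -0.02 over all. With each array centred on its median the share of all probe sets above 0 was 53.3%, again with 6 of the 9, and with quantile normalization again 5 of the 9 were above 0, beside 47.2%. From high to low, the means ran TP male, vehicle male, TP female and vehicle female for Grm3 and for the brightest Grm7 probe set. They ran vehicle male, vehicle female, TP male and TP female for Grm2, vehicle male, TP male, vehicle female and TP female for Grm4, and vehicle male, TP male, TP female and vehicle female for Grm8. For Grm7 and Grm8 all neighbouring means lay within the SD of the vehicle female pair, 0.10 log2 units for both, and for Grm4 within that of the TP female pair, 0.13. For Grm3 the step between the vehicle male, at 10.80, and the TP females, at 10.59, exceeded the SDs of both female pairs (0.01 and 0.08).

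In females 6 of the 9 were above 0 (44.5% of all), and between the male arrays 3 of the 9 were (43.7% of all). In females 2 of the 9, both of Grm5, had TP above vehicle without overlap, beside 16% of all probe sets, and 1, Grm2, had TP below vehicle, beside 22.5%. Over the whole array limma called 2 of 34945 probe sets in females (0.00572%), which is given as background and not as a test of the receptors.

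**Figure D2:**
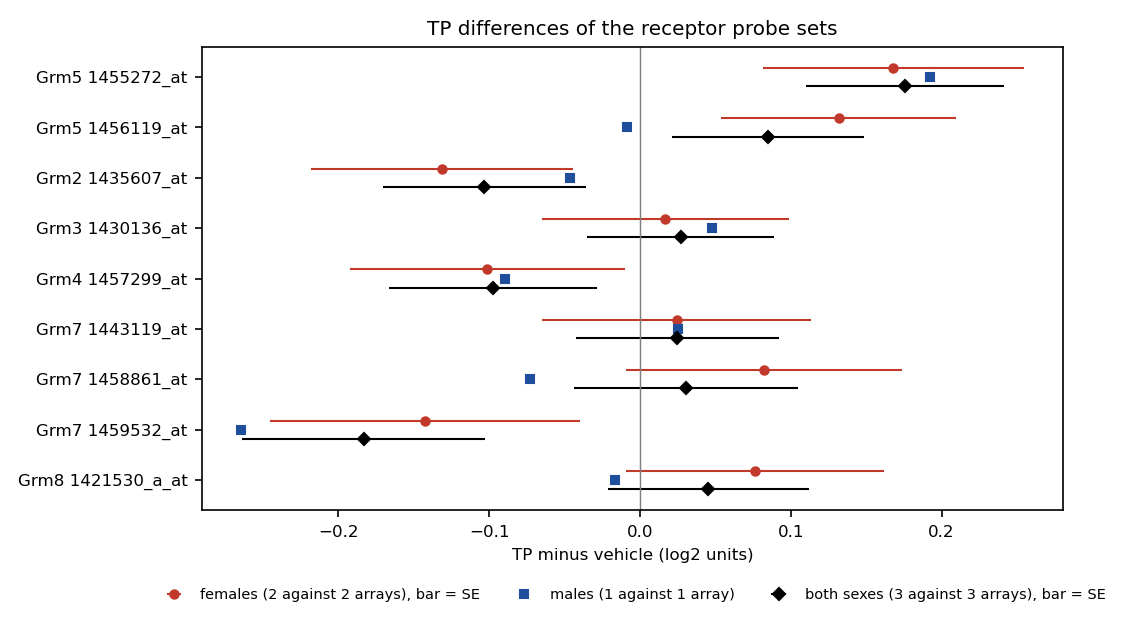
TP minus vehicle in log2 units (x axis) for each receptor probe set (rows) in females, males and both sexes; bars are standard errors and the male points, 1 array each, have none. The brighter Grm5 probe set lies to the right of 0 in all 3 comparisons, at 0.17, 0.19 and 0.18.

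Whether the TP difference depended on sex was tested by limma as a contrast of the 4 group means. The spread comes from the female pairs alone, since each male group has 1 array. No receptor probe set passed: 0 of 9, each with limma adjusted p = 0.9999, where 0.02% of all probe sets were called (7 of 34945) and 4.84% had an unadjusted p under 0.05, against 0 of the 9. For the brighter Grm5 probe set the female minus male TP difference was -0.02 (95% interval -0.39 to 0.34), and for the other 0.14 (-0.19 to 0.47). The widest interval, for the dim Grm7 1459532_at, ran from -0.31 to 0.55. A female minus male difference as large as the TP difference of the brighter Grm5 probe set, 0.18, lies inside each of the 9 intervals.

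Male and female brains were next compared over both treatments. This contrast was not used to choose the receptors, though earlier results of these data were known when they were chosen. Grm3 had the largest sex difference among the 9 probe sets. The male arrays, at 10.85 and 10.80 log2 units, lay above all 4 female arrays, which ranged from 10.52 to 10.64, with a gap of 0.16 between the groups. The male minus female difference was 0.24 (SE 0.07, 95% interval 0.08 to 0.39), a 1.18-fold higher level that did not pass the threshold over all probe sets (limma adjusted p = 0.304, unadjusted p = 0.0081). Within TP arrays alone the difference was 0.25 and within vehicle arrays alone 0.22, which is also the value with the TP male array left out. Each of these values has 1 male array. The interval and p-values above rest in part on the TP male array, which stood apart on several measures.

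Grm4 also had both male arrays above the females, at 7.59 and 7.68 log2 units, against 7.35 to 7.55, with a gap of 0.035. The difference was 0.14 (SE 0.07, 95% interval -0.03 to 0.31, limma adjusted p = 0.472), and 0.13 with the TP male array left out. Of 7 cerebellum markers measured, 7 had negative male minus female differences, as did 10647 of all 18193 genes. Their median was -0.29, and -0.30 with 7 of 7 negative without the TP male array. All 7 had an unadjusted p under 0.05 by limma, beside 14% of all genes, and 0 passed the adjusted threshold. The marker means were 8.29 in the TP male and 8.33 in the vehicle male, against 8.58 to 8.67 in TP females and 8.58 to 8.62 in vehicle females. Their part in the Grm4 value was not tested.

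For the brightest Grm7 probe set the lowest male and the highest female array both stood at 9.75 and differed by 4.6e-05 log2 units, so the separation has no weight. Its difference was 0.07 (95% interval -0.09 to 0.24). The dim Grm7 probe sets had -0.08 and -0.11. The other values were 0.11 (95% interval -0.06 to 0.27) for the brighter Grm5 probe set, 0.05 (-0.11 to 0.21) for the other, 0.08 (-0.09 to 0.24) for Grm2 and 0.07 (-0.09 to 0.24) for Grm8. With the TP male array left out they were 0.10 for the brighter Grm5 probe set, 0.12 for the other, 0.04 for Grm2, 0.12 for Grm8, 0.07 for the brightest Grm7 probe set and -0.0022 and -0.05 for the dim ones.

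In all, 3 of the 9 receptor probe sets had males above females without overlap (7.83% of all probe sets) and 0 had males below (12.5%). By limma 0 of 9 passed the adjusted threshold, where 0.0114% of all probe sets did (4 of 34945), and 1 of 9 had an unadjusted p under 0.05, beside 12.5% of all. Of the 9, 7 had a difference above 0, as did 45.4% of all, and the median was 0.07 beside -0.01 over all probe sets. With each array centred on its median 7 of 9 stood beside 53.8% of all. Probe sets of one gene are not independent measurements. With the TP male array left out, 4 of the 9 had the lone vehicle male above all females, beside 23% of all.

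**Figure D3:**
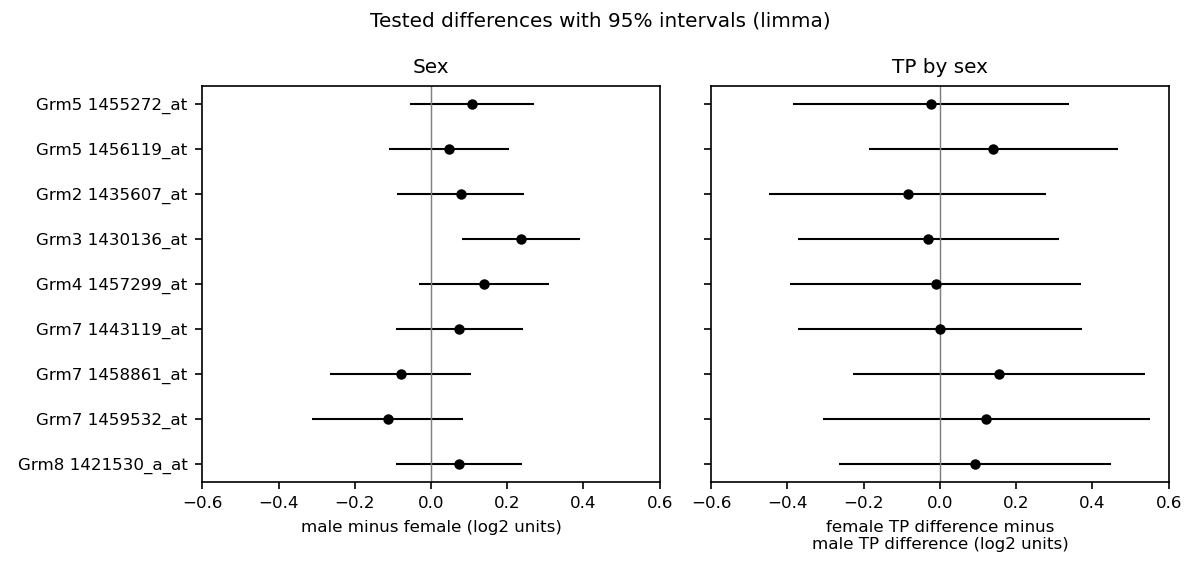
Male minus female differences (left) and the female minus male difference of the TP effect (right), in log2 units, for each receptor probe set; points are limma estimates over 6 arrays and bars their 95% intervals. In the left panel the interval of Grm3, from 0.08 to 0.39, is the only 1 of 9 that leaves out 0.

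The genes around the receptors were followed through 7 lists with 93 measured genes, each gene by its brightest probe set. By limma 0 of the 93 passed for sex, with 17 at an unadjusted p under 0.05 (14% of all genes were), and 0 passed for the dependence of the TP difference on sex, with 3 at an unadjusted p under 0.05 (4.42% of all genes). The values named here are the smallest p by sex and the largest TP differences of each list, and none of them passed. In the ionotropic list, TP values of Grin2b and Grik5 are also given, because their TP and vehicle arrays did not overlap. Without the TP male array the 14 sex values and 15 TP values named below all kept their sign. Of these, 5 sex values moved by over 1.5 times, to -0.11 for Elfn1, -0.11 for Plcb3, -0.04 for Adcy6, -0.14 for Slc17a7 and -0.23 for Gria3. Likewise 3 TP values did, to -0.07 for Plcb3, -0.05 for Rgs11 and -0.28 for Rgs9bp. Of the 93 genes, 6 had all TP arrays above all vehicle arrays (4.69% of all genes did) and 9 had them all below (10.3%).

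Scaffold and trafficking partners (15 genes) had a median TP difference of -0.02 and a median sex difference of -0.09, beside -0.03 and -0.02 over all genes. Dlgap1, a postsynaptic density scaffold, had 9.67 and 9.67 log2 units in TP females and 9.68 in the TP male, against 9.28 and 9.60 in vehicle females and 9.37 in the vehicle male, so all TP arrays were above the vehicle arrays. Its TP difference was 0.26 (SE 0.09, n = 3 each), and that of Grip1, a PDZ scaffold of glutamate receptors, was 0.18 (SE 0.08). By sex, Homer2, whose protein family binds the tail of the group I receptors, had -0.21 (limma adjusted p = 0.293) and Elfn1, a synaptic adhesion protein that binds group III receptors, -0.21 (limma adjusted p = 0.278).

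The Gq arm, which acts below Grm5, had 9 of 13 genes with a negative TP difference (62.1% of all genes had one), with a median of -0.04. Itpr2, an IP3 receptor that releases calcium, had -0.16 (SE 0.06) and Plcb3, a phospholipase C, -0.14 (SE 0.08). By sex, Daglb, which makes the endocannabinoid 2-arachidonoylglycerol, had -0.31 (limma adjusted p = 0.264) and Plcb3 -0.21 (limma adjusted p = 0.315). In the Gi/o arm (19 genes, median TP difference 0.00) the adenylyl cyclase Adcy2 had -0.21 (SE 0.06) and the potassium channel subunit Kcnj9 0.21 (SE 0.07). The cyclases Adcy1 and Adcy6 had sex differences of 0.14 (limma adjusted p = 0.331) and -0.12 (limma adjusted p = 0.432).

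Genes for transport, vesicle loading and metabolism of glutamate and related amino acids (12 measured) had median differences of -0.02 with TP and -0.04 by sex. Slc1a2, the main astrocyte glutamate transporter, had 11.72 and 11.74 log2 units in the TP and vehicle males, against 11.49 to 11.51 in TP females and 11.43 to 11.57 in vehicle females. Its sex difference was 0.23 (SE 0.06, limma adjusted p = 0.266), with both males above all females as for Grm3 (7.04% of all genes had this). Sex differences were below 0 for 6 of 6 astrocyte markers (median -0.05), for 6 of 6 neuron markers and for 10647 of all 18193 genes. Without the TP male array they were below 0 for 5 of 6 astrocyte markers, 3 of 6 neuron markers and 10314 of all genes. Any link between the Slc1a2 and Grm3 values was not tested. Slc17a7, a vesicular glutamate transporter, had -0.25 by sex (limma adjusted p = 0.313), and the largest TP differences were -0.13 for Got2, an aspartate aminotransferase, and -0.11 for the transporter Slc1a6.

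Partners of Grm6 in retinal bipolar cells were mostly dim, 5 of 7 measured. Nyx had a sex difference of 0.33 and Gnb3 of 0.16, both dim, and Rgs11 and Rgs9bp had TP differences of -0.16 and -0.14. Other class C receptors, the wider family, were dim for 8 of 11 genes, with a median sex difference of 0.17. Tas1r1, a taste receptor, had 0.27 by sex (limma adjusted p = 0.268), and Gprc5b -0.22 (limma adjusted p = 0.268). Gprc5c had a TP difference of -0.20, and Gabbr1, a subunit of the GABA-B receptor, -0.11. Ionotropic receptors (16 genes) had a median TP difference of 0.01. In 3 of the 16 all TP arrays were above all vehicle arrays (4.69% of all genes had this), and in 1 all were below (10.3%). The 1 below was the kainate receptor subunit Grik5, at 8.39 and 8.43 in TP females and 8.30 in the TP male. Its vehicle arrays were at 8.48 and 8.49 in females and 8.44 in the male. Of the 3, Gria3, an AMPA receptor subunit, and Grik3, also a kainate receptor subunit, each had 0.26 (SE 0.07), and Grin2b, an NMDA receptor subunit, had 0.16 (SE 0.05). Grin2b had a sex difference of 0.11 (limma adjusted p = 0.427), and Gria3 -0.14 (limma adjusted p = 0.439).

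**Figure D4:**
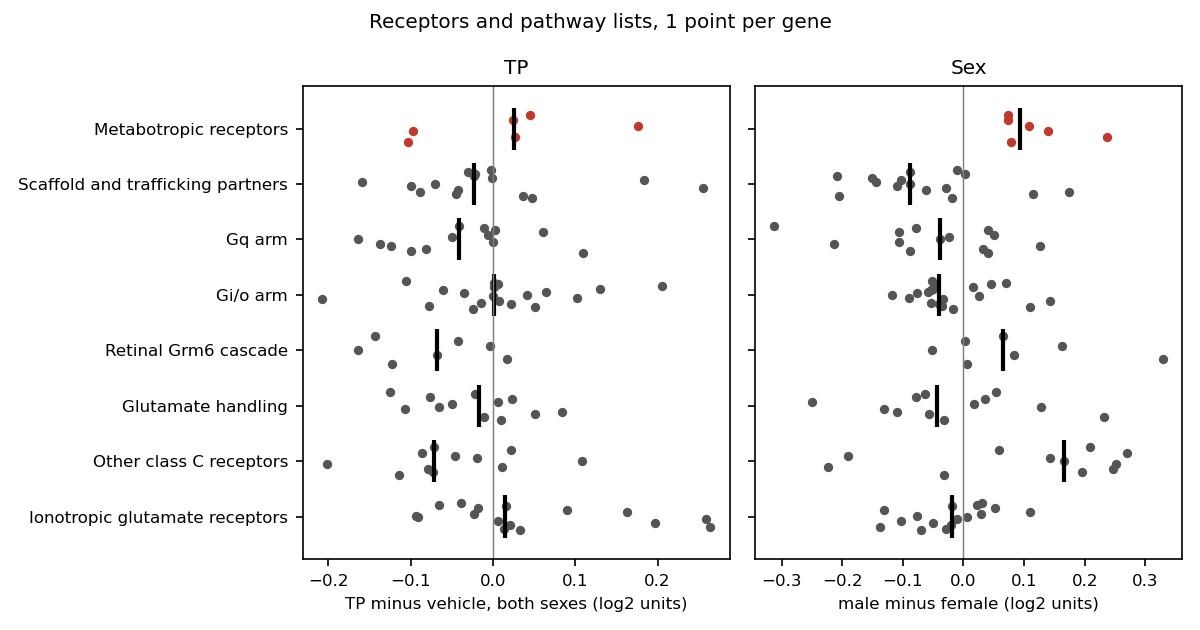
TP minus vehicle over both sexes (left) and male minus female (right), in log2 units, with 1 point per gene for the 6 receptors (brightest probe sets, red) and the 7 lists (grey); vertical bars are medians. On these probe sets the receptors' sex differences all lie above 0, from 0.07 to 0.24, as did those of 7546 of all 18193 genes. Of the probe sets not shown, the other of Grm5 had 0.05 and the dim ones of Grm7 -0.08 and -0.11. None of the genes shown passed the limma threshold for sex.

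Genes whose profile over the 6 arrays was most like that of a receptor were found by the root mean square difference of array-centred levels, among 12252 genes that were not dim. Nearest to Grm5 were Csrnp3 (0.017 log2 units), Akap9 (0.019) and Fut9 (0.022). Csrnp3 had 10.35 and 10.27 in TP females and 10.45 in the TP male, against 10.12 and 10.21 in vehicle females and 10.27 in the vehicle male. Nearest to Grm3 were Krt77, Sbno1 and Cdkl1, at 0.035 to 0.038, the loosest matches of the 6 receptors. The nearest gene was Smg9 for Grm2 (0.011), Ercc2 for Grm4 (0.023), Dlc1 for Grm7 (0.015) and Fry for Grm8 (0.015). With 6 arrays and this many genes such matches are a description.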

How the data were processed

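Per the submitters' processing notes, the authors deposited log2 expression values made with RMA, with no version given in the sources used here. Of 45101 probe sets, 34945 were paired with 1 gene, 932 with several and 9160 with none in the platform annotation, and 64 were controls. Gene identifiers were looked up in RefSeq (GRCm38.p6, 34741 matched). At most 215 values were equal in any 2 arrays. Arrays give no counts, so their number limits the precision.

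All single-gene probe sets were fitted with limma 3.58.1 in R 4.3.3 (two-sided, no intensity trend, Benjamini-Hochberg over 34945 probe sets, threshold 0.05). Sex and treatment were additive over 6 arrays, and their interaction was a contrast of 4 group means. The sex fit was also run on simulated data, with differences larger than those of the receptors, so that run does not bear on differences of their size. Lists used each gene's brightest probe set (18193 genes). Of 105 pathway and 78 marker entries, 93 and 69 were measured. Figures used Python 3.11.15, pandas 2.3.3 and matplotlib 3.10.9.

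The receptors and lists were chosen with earlier results of these data known. Text values cover every receptor probe set, from each list the 2 smallest p by sex and the 2 largest TP differences, and for each receptor the 3 most similar profiles, in part by name only. TP values of Grin2b and Grik5 are given besides, for their separated groups. A gene of the family is not reported here. In all, 16 other settings were tried, and counts of separated groups and list values without the TP male array were added after seeing the data.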

Additional observations from a re-analysis of the deposited data

How the results depend on the processing

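Of the 16 other settings, none that applies to these tests brought a receptor probe set past the limma threshold for sex or for the dependence of the TP difference on sex (0 of the probe sets tested in each). Among the brightest probe sets the sex difference ranged from 0.21 to 0.27 for Grm3 (adjusted p 0.107 to 0.864), 0.10 to 0.19 for Grm4, 0.08 to 0.14 for Grm5, 0.04 to 0.12 for Grm2, 0.03 to 0.12 for Grm8 and -0.0399 to 0.115 for Grm7. The TP difference over both sexes ranged from 0.13 to 0.21 for Grm5, -0.14 to -0.05 for Grm2 and -0.15 to -0.04 for Grm4, and took both signs for Grm3 (-0.0048 to 0.06), Grm7 (-0.04 to 0.07) and Grm8 (-0.003 to 0.08). In females it also took both signs for Grm3 (-0.04 to 0.08) and Grm7 (-0.05 to 0.10). Sex differences of Grm2, Grm3, Grm4, Grm5 and Grm8 kept their sign, while that of Grm7 was -0.0399 with the mean of its probe sets. The female minus male TP difference turned sign for Grm5 (0.058 with the mean of probe sets), for Grm7 (0.0919 with the mean of probe sets, 0.0051 with quantile normalization again) and with an array left out. Those leave-one-out values ranged from -0.0824 to 0.0343 for Grm5, from -0.0744 to 0.0726 for Grm7, from -0.0899 to 0.0285 for Grm3 and from -0.105 to 0.0816 for Grm4. Counts over all probe sets moved more. For sex, 4 were called, against 37 with an intensity trend, 0 with dim probe sets left out (3321 at an unadjusted p under 0.05), 12 on TP arrays alone and 3 to 14 with 1 array left out (6 without the TP male array and 14 without the vehicle male array). For the interaction, 7 were called, against 12 with the trend and 2 with the brightest probe set or the mean per gene. For TP over both sexes, 0 were called, against 38 with the trend and 0 to 2 with 1 array left out (2 without either of the male arrays). For TP in females, 2 were called, against 16 with the trend, 6 with quantile normalization again, 6 with arrays centred on their medians, 5 at gene level, 1 without dim probe sets and 0 with any 1 female array left out. The cause of these shifts was not tested. The original or replica number was used as a replicate block on the female arrays, which again called 2 probe sets; in this balanced layout a block cannot alter the difference itself, 0.17 for Grm5. Same-numbered female arrays deviated together with a correlation of 0.11 over probe sets, and the labels give these numbers no shared source. The model of 4 groups gives the female difference unchanged by construction. Leaving out an array that is alone in its group leaves no interaction to fit.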
